A study of Mus musculus with 18 samples.

Results

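The 10 genes described here encode enzymes that modify transfer RNA (tRNA), mainly the tRNAs of the mitochondrion: Cdk5rap1, Trmt2b, Mto1, Gtpbp3, Trmu, Trit1, Trmt5, Pus1, Qtrt1 and Nsun3. They were chosen by gene symbol from the 54347 rows of an RNA-seq count table, and all 10 passed the filter on low counts, as did 18728 genes in all. The choice used earlier results of the same data. Cdk5rap1 was included because it was higher in each knockout library than in the same-numbered wild type library, and Trmt2b because it was higher in brown fat. Those differences are therefore given as a description, with no test.

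Polyadenylated RNA was sequenced from 3 fat depots of 6 mice: interscapular brown fat (iBAT) and the white fat of the inguinal (iWAT) and epididymal (eWAT) depots. The mice were 12 weeks of age, on a C57BL/6N background and fed a chow diet. Of these, 3 were wild type (wt) and 3 were knockout (ko) litter mates, in which CRISPR/Cas9 had deleted a stretch including exon 1 of the long noncoding RNA gene Gm15551. Each mouse gave 1 library per tissue, so that 18 libraries formed 6 groups of 3. The knockout line came through 2 generations of backcross, and tissue pieces were lysed whole, so each library holds the RNA of all cell types in the depot.

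Mitochondria keep their own genome, from which they transcribe all tRNAs used by their own ribosomes. These tRNAs become functional only after nuclear-encoded enzymes alter their bases, above all at the wobble base of the anticodon, which reads the last letter of the codon, and at the purine beside the anticodon. The products of mitochondrial translation are core subunits of the respiratory chain, whose activity is uncoupled to give heat in brown fat. Polyadenylated RNA reports the transcripts of the enzymes, not their activity, and the modifications themselves were not measured.

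Total counts per library ranged from 14997901 to 34389586, and the mitochondrial genome took 22.9% to 27.0% of counts in iBAT and 3.77% to 9.64% in the white tissues. Gm15551 held 40 to 316 counts in wild type libraries and 0 to 4 in knockout libraries. Brown adipocyte markers summed to between 6360 and 11829 CPM (counts relative to the library total, scaled by TMM, the trimmed mean of M values) in iBAT and at most 269.5 CPM in white fat, so that iBAT carried its label. Markers of other tissues stood high in 4 white libraries. Lymphocyte markers summed to 844 CPM in iWAT wt 3 and 352.7 CPM in iWAT ko 2, against 3.4 CPM in the lowest iWAT library. Skeletal muscle markers summed to 4649 CPM in iWAT ko 1 against at most 6.66 CPM in other iWAT libraries, and epididymis markers to 4824 CPM in eWAT ko 3 against at most 16.7 CPM in other eWAT libraries. The counts of members called between groups were also taken without these 4 libraries. In whole tissue, fewer cells of a type and less RNA per cell cannot be told apart.

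The region before the start site is shown first for both genes that led to the choice, Trmt2b by tissue and Cdk5rap1 by genotype. The stretches are RefSeq sequence of GRCm38.p6 on the strand of the gene, 5′ to 3′, limited to upstream bases in which GENCODE M21 annotates no exon. That of Trmt2b covers chrX:134276985-134277234 on the minus strand and ends at the start site, and that of Cdk5rap1 covers chr2:154372855-154372961 on the minus strand, between alternative first exons. Neither window of 300 bases around the start site, 250 before and 50 after, held any of 4 short motifs that were searched on both strands.
Trmt2b upstream: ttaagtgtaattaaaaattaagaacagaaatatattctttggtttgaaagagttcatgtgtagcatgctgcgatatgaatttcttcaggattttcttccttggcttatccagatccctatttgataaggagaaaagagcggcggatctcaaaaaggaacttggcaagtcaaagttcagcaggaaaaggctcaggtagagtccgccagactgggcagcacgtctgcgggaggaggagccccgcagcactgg
Cdk5rap1 upstream: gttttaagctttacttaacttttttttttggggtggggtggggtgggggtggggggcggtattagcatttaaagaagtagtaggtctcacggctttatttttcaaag

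The 4 motifs were those of factors known to act on nuclear genes for mitochondrial proteins. The NRF1 motif, GCGCA followed by any base and GCGC, was found in 0 of the 10 members and in 5.19% of 27025 genes with a window. AAGGTCA, bound by estrogen-related receptors, was also found in 0 members, against 5.38% of genes. CCGGAAG, for GABPA, was found in 3 members, Nsun3, Trmt5 and Trmu, against 9.93% of genes. AANATGGCG, for YY1, was found in 3 members, Mto1, Qtrt1 and Trit1, against 2.76% of genes. No matches overlapped each other. A match of letters is a description, not a binding site. The matched letters are in capitals below, with 8 bases on either side, to show how alike the sites are between members. All 3 YY1 matches lay shortly after the start site on the strand of the gene. Positions are those of the stretches as printed, with the flanking bases. For YY1 they were chr9:78448219-78448243 for Mto1, chr9:21411844-21411868 for Qtrt1 and chr4:123016599-123016623 for Trit1. For GABPA they were chr16:62786747-62786769 for Nsun3, chr15:85879322-85879344 for Trmu, and chr12:73286781-73286803 and chr12:73286810-73286832 for Trmt5.
Mto1, YY1: actcggccAAGATGGCGacgcccag
Trit1, YY1: atgccttcAAGATGGCGgctgcggc
Qtrt1, YY1: cgggactgAAAATGGCGgcggtagg
Nsun3, GABPA: cgcaggacCCGGAAGtatggcgt
Trmt5, GABPA, nearer the start: tcgcgggcCCGGAAGagaggtgc
Trmt5, GABPA, farther from the start: gcttggccCTTCCGGgctctcgt
Trmu, GABPA: ggctgggaCTTCCGGcgtagctt

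The first comparison was between brown fat and both white depots. Most of the enzymes were higher in iBAT. Leaving out Trmt2b, which was chosen on this difference, 7 of 9 members were higher in iBAT than in iWAT at an edgeR adjusted p under 0.05, against 24.0% of all genes (54.3% changed in either direction), and 9 of 9 were higher in iBAT than in eWAT, against 24.4% of all genes (54.6% in either direction). No member was lower in iBAT in either comparison, against 30.3% and 30.2% of all genes. Without the 4 libraries with markers of other tissues the counts were 6 and 9. With the 9 wild type libraries alone they were 6 and 3, and with the 9 knockout libraries alone 4 and 4. Those smaller fits called 6595 and 6574 genes in either direction with wild type and 5584 and 5878 with knockout libraries, against 10164 and 10220 over all libraries. The members no longer called against eWAT in either genotype alone were Trit1, Trmt5, Pus1 and Qtrt1, with edgeR adjusted p from 0.0517 to 0.300. Wild type libraries alone also lost Cdk5rap1 (edgeR adjusted p = 0.0580) and Trmu (0.115) against eWAT, and knockout libraries alone lost Nsun3 (0.105). Against iWAT, Pus1 was lost in both (edgeR adjusted p = 0.109 and 0.107), and Gtpbp3 (0.0565) and Trit1 (0.165) with knockout libraries alone. The changes were unequal: Mto1 rose by 1.56 and 2.10 on the log2 scale, while the other 8 members lay between 0.07 and 0.95 against iWAT and between 0.38 and 0.82 against eWAT. The median of all genes tested was -0.14 against iWAT and -0.17 against eWAT, on the same scale. Macrophage markers moved the other way across these tissues. All 6 were called lower in iBAT in both comparisons, with median log2 differences of -2.85 and -2.02, and none was at 0 counts in any library. Their sum ran from 54.3 to 145.4 CPM in iBAT, from 247.0 to 1780 CPM in iWAT and from 143.8 to 537.9 CPM in eWAT. Of 5 mesothelium markers, 3 were called lower and 1 higher in iBAT than in iWAT, and 4 lower than in eWAT, where they summed to between 69.0 and 122.0 CPM against 4.02 to 6.89 CPM in iBAT. All 8 lymphocyte markers were called lower in iBAT than in iWAT (median log2 -5.31) and 0 of 8 against eWAT by edgeR (median -0.76, 0 at an unadjusted p under 0.05). Their sum was 844 CPM in iWAT wt 3 and 352.7 CPM in iWAT ko 2. In the remaining iWAT libraries it was 3.40 to 17.0 CPM, against 2.85 to 7.28 CPM in iBAT. Of 9 tested skeletal muscle markers, 5 were called lower than in iWAT and 1 than in eWAT. The sum of the muscle markers was 4649 CPM in iWAT ko 1 and at most 6.66 CPM in other iWAT libraries. The part of these lists in the differences of the enzymes was not tested.

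**Figure D1:**
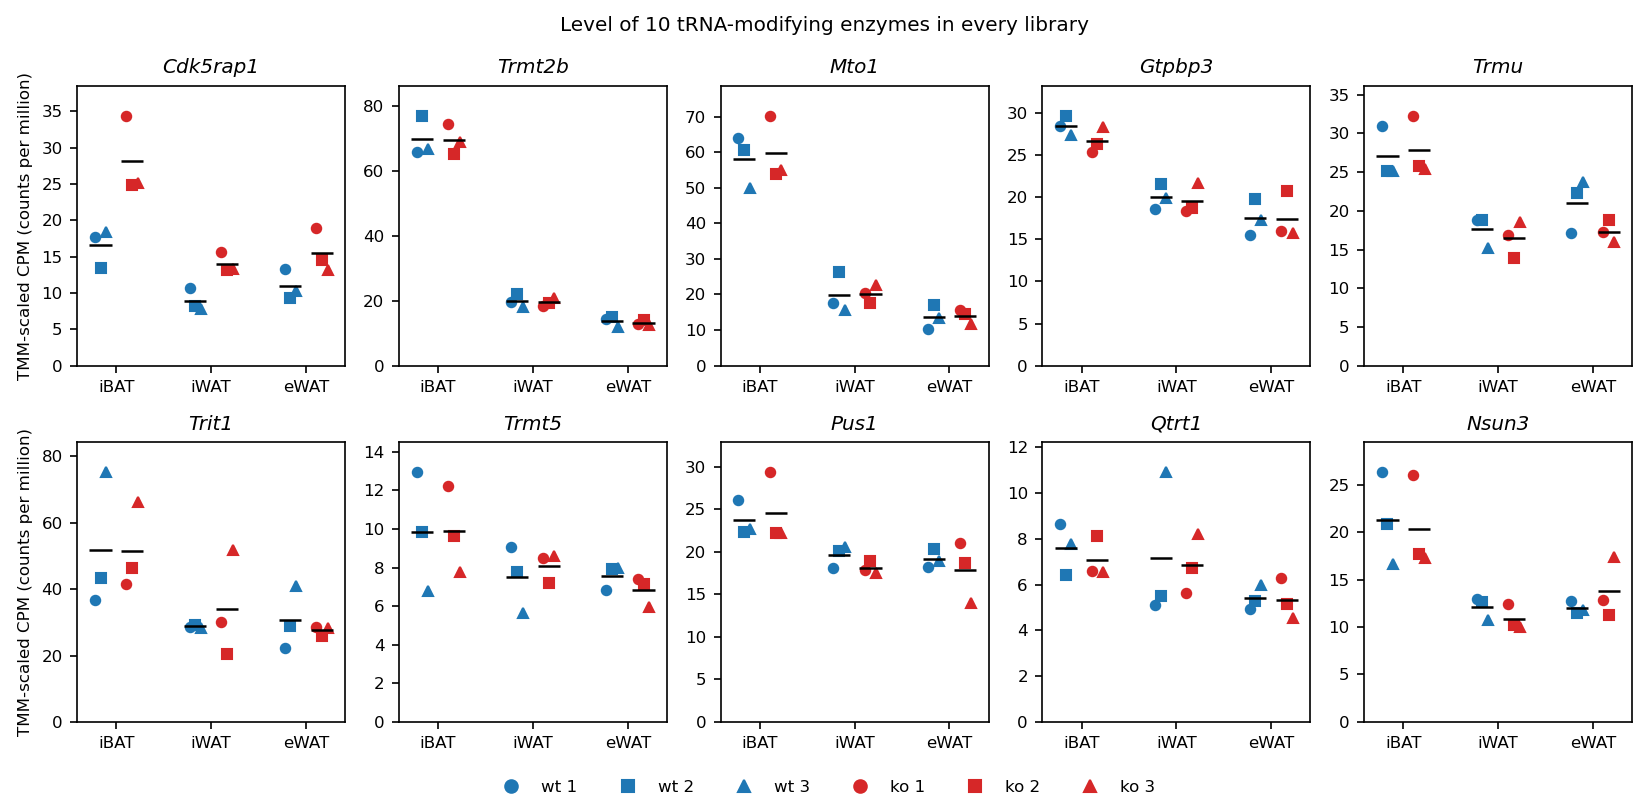
TMM-scaled CPM (y axis, from 0 in each panel) of the 10 enzymes in each of 18 libraries, by tissue (x axis) and genotype (blue wt, red ko), with marker shapes for the replicate number and black lines for the mean of 3 libraries. Trmt2b and Mto1 stand well above both white tissues in iBAT, and Cdk5rap1 is the gene whose red points lie above the blue points in iBAT and iWAT without overlap.

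The wobble uridine of several mitochondrial tRNAs receives a taurine-containing group from Mto1 and Gtpbp3, which work together, and a sulphur from Trmu. Mto1 (ENSMUSG00000032342.13, chromosome 9, 78448208 to 78475348, plus strand) showed 49.9, 57.8 and 70.2 CPM in iBAT as the lowest, median and highest of 6 libraries. In iWAT these values were 15.5, 19.0 and 26.3 CPM, and in eWAT 10.2, 14.0 and 17.1 CPM. All 6 iBAT libraries thus lay above all 12 white libraries, while iWAT and eWAT overlapped. The difference was 2.94-fold against iWAT (log2 1.56 ± 0.15 SE, edgeR adjusted p = 2.04e-07) and 4.29-fold against eWAT (log2 2.10 ± 0.15 SE, edgeR adjusted p = 5.81e-09). Mto1 was also higher in iWAT than in eWAT by log2 0.54 ± 0.14 (SE, edgeR adjusted p = 0.0258). That call was lost in 5 of 18 fits without 1 library (iWAT wt 2, iWAT ko 3, eWAT wt 1, eWAT wt 3 or eWAT ko 3), with edgeR adjusted p from 0.0508 to 0.0672. The first exon of Mto1 overlaps Gm17324 on the other strand, and whether counting used strand is not given in the sources used here.

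Gtpbp3, the GTPase partner of Mto1 (ENSMUSG00000007610.15, chromosome 8, 71488103 to 71499583, plus strand), held a narrower range. Its lowest, median and highest values were 25.3, 27.8 and 29.6 CPM in iBAT, 18.3, 19.3 and 21.7 CPM in iWAT, then 15.5, 16.6 and 20.7 CPM in eWAT. The iBAT libraries again lay above all white libraries, by 1.39-fold against iWAT (log2 0.48 ± 0.09 SE, edgeR adjusted p = 0.000279) and 1.57-fold against eWAT (log2 0.65 ± 0.09 SE, edgeR adjusted p = 1.11e-05). Plvap overlaps it on the other strand.

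The ratio of Mto1 to Gtpbp3 was computed per mouse after these values were seen. On the log2 scale it averaged 1.09 ± 0.21 for iBAT, -0.00187 ± 0.227 in iWAT and -0.36 ± 0.21 in eWAT (SD, n = 6 mice). It was higher in iBAT in 6 of 6 mice in both comparisons, by 1.09 ± 0.23 over iWAT and 1.45 ± 0.20 over eWAT (SD). The two-sided exact paired permutation test gave p = 0.03125 for each, the smallest that 6 mice allow. Over the 6 ratio tests made the adjusted p was 0.094, above the threshold. As p could not fall below 0.03125, this value was limited by the number of mice and cannot decide on the ratio. The other ratios, Cdk5rap1 to Trit1 and Qtrt1 to its partner subunit Qtrt2, gave mean differences from -0.27 to 0.22 and exact permutation p from 0.1875 to 0.375 with n = 6 mice.

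Trmu, the sulphur-transferring enzyme (ENSMUSG00000022386.12, chromosome 15, 85879312 to 85897394, plus strand), ranged from 25.1 to 32.3 CPM in iBAT with a median of 25.6 CPM. In iWAT it ranged from 13.9 to 18.8 CPM around 17.7 CPM, and in eWAT from 15.9 to 23.7 CPM around 18.001 CPM. No white library reached the lowest iBAT library. The edgeR difference was 1.61-fold against iWAT (log2 0.69 ± 0.12 SE, adjusted p = 9.68e-05) and 1.44-fold against eWAT (log2 0.52 ± 0.12 SE, adjusted p = 0.00106).

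Nsun3 and Qtrt1 act on the wobble base of other tRNAs. Nsun3 methylates the wobble cytosine of the mitochondrial methionine tRNA (ENSMUSG00000050312.12, chromosome 16, 62732444 to 62786818, minus strand). Its lowest, median and highest values were 16.7, 19.3 and 26.3 CPM in iBAT, 9.98, 11.6 and 12.9 CPM in iWAT, then 11.2, 12.3 and 17.4 CPM in eWAT. All iBAT libraries lay above all iWAT libraries, whereas eWAT ko 3, the library with epididymis markers, reached into the iBAT range. The difference was 1.81-fold against iWAT (log2 0.85 ± 0.15 SE, edgeR adjusted p = 0.00013) and 1.61-fold against eWAT (log2 0.69 ± 0.15 SE, edgeR adjusted p = 0.000833). Without the 4 libraries named above it was 0.79 against eWAT on the log2 scale.

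Qtrt1 is the catalytic subunit of the enzyme that exchanges a guanine for queuine in the anticodon of both mitochondrial and cytosolic tRNAs (ENSMUSG00000002825.8, chromosome 9, 21411837 to 21420274, plus strand). It was the member with the fewest reads, 84 to 331 counts per library. It held 6.42, 7.17 and 8.67 CPM in iBAT as the lowest, median and highest values, 5.13, 6.18 and 10.9 CPM in iWAT, then 4.56, 5.22 and 6.31 CPM in eWAT. The highest of all 18 values stood in iWAT wt 3, the library with the highest lymphocyte markers, and their part in this value was not tested. The difference against iWAT, 0.07 ± 0.18 (SE) on the log2 scale, was within the spread between libraries (edgeR adjusted p = 0.784). Against eWAT it was 0.45 ± 0.18 (SE, edgeR adjusted p = 0.0462). That call was lost in 11 of 18 fits without 1 library, with edgeR adjusted p from 0.0506 to 0.0920. These were the fits without any 1 of the iBAT libraries other than wt 2, any 1 of the eWAT libraries other than ko 1, or iWAT ko 2. It was also lost with no filter on low counts (edgeR adjusted p = 0.141) and with at least 10 counts in every library (edgeR adjusted p = 0.0933). All 6 iBAT values nonetheless lay above all 6 eWAT values, as they did for 18.8% of all genes.

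Beside the anticodon, Trit1 attaches an isopentenyl group to an adenosine, Cdk5rap1 adds a methylthio group to that product in mitochondrial tRNAs, and Trmt5 methylates a guanosine. Trit1, which also serves cytosolic tRNAs (ENSMUSG00000028653.16, chromosome 4, 123016597 to 123054949, plus strand), had a coefficient of variation of 29.9% in iBAT, 33.5% in iWAT and 21.8% in eWAT, against 5.7% to 12.8% for Gtpbp3. Its lowest, median and highest values were 36.7, 45.0 and 75.2 CPM in iBAT, 20.6, 28.9 and 51.7 CPM in iWAT, then 22.2, 28.4 and 41.1 CPM in eWAT. Library 3 was the highest of its genotype in iBAT for both genotypes, and the tissues overlapped. The difference was 1.64-fold against iWAT (log2 0.72 ± 0.22 SE, edgeR adjusted p = 0.0112) and 1.77-fold against eWAT (log2 0.82 ± 0.22 SE, edgeR adjusted p = 0.00457). The former was lost without the 4 libraries with markers of other tissues, where it was 0.49 ± 0.26 (SE) with an edgeR adjusted p of 0.148, so that 6 of 9 members were then higher than in iWAT.

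Cdk5rap1 (ENSMUSG00000027487.11, chromosome 2, 154335380 to 154373010, minus strand) showed 13.5, 21.6 and 34.4 CPM in iBAT as the lowest, median and highest of 6 libraries, 7.78, 11.9 and 15.6 CPM in iWAT, then 9.36, 13.2 and 19.0 CPM in eWAT. The difference in genotype lay inside these ranges. With genotype as a term in the model, iBAT was 1.94-fold above iWAT (log2 0.95 ± 0.14 SE, edgeR adjusted p = 2.60e-05) and 1.65-fold above eWAT (log2 0.72 ± 0.14 SE, edgeR adjusted p = 0.000326). The difference between iWAT and eWAT, -0.23 ± 0.14 (SE), did not pass the test (edgeR adjusted p = 0.316).

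Trmt5 (ENSMUSG00000034442.11, chromosome 12, 73280011 to 73286710, minus strand) held 6.79, 9.74 and 12.9 CPM in iBAT, 5.64, 8.14 and 9.06 CPM in iWAT, then 5.94, 7.29 and 7.95 CPM in eWAT. Library 1 was the highest and library 3 the lowest of its genotype in iBAT, for wt and ko alike, and the same held for Nsun3. The difference against iWAT was 0.34 ± 0.17 (SE) on the log2 scale and did not pass the test (edgeR adjusted p = 0.0963), but passed it without iBAT wt 3 (log2 0.43, edgeR adjusted p = 0.0356). Against eWAT it was 0.45 ± 0.17 (SE, edgeR adjusted p = 0.0300). This call was lost in 6 of 18 fits without 1 library (iBAT wt 1, iBAT wt 2, iBAT ko 1, eWAT wt 1, eWAT ko 2 or eWAT ko 3), with edgeR adjusted p from 0.0504 to 0.0868. It was also lost with no filter on low counts, at an edgeR adjusted p of 0.113.

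Pus1 and Trmt2b act on the body of the tRNA. Pus1 turns uridines into pseudouridines in mitochondrial and other RNAs (ENSMUSG00000029507.16, chromosome 5, 110773667 to 110780659, minus strand). It held 22.2, 22.5 and 29.4 CPM in iBAT, 17.5, 18.5 and 20.5 CPM in iWAT, then 14.0, 18.8 and 21.0 CPM in eWAT as the lowest, median and highest values. The difference was small but the iBAT libraries stood above all white ones, by 1.28-fold against iWAT (log2 0.36 ± 0.10 SE, edgeR adjusted p = 0.00749) and 1.30-fold against eWAT (log2 0.38 ± 0.10 SE, edgeR adjusted p = 0.00488). With no filter on low counts the edgeR adjusted p against iWAT was 0.0554. Pus1 shares its locus with Gm15559 and Gm26515 on the other strand.

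Trmt2b methylates a uridine in the T loop of mitochondrial tRNAs (ENSMUSG00000067369.12, chromosome X, 134222339 to 134276984, minus strand). In iBAT it held 65.9, 77.0 and 66.9 CPM in wt 1 to 3 and 74.6, 65.4 and 69.0 CPM in ko 1 to 3. In iWAT the values were 19.7, 22.1 and 18.2 CPM in wt and 18.5, 19.4 and 20.8 CPM in ko. In eWAT they were 14.2, 14.9 and 11.9 CPM in wt and 12.8, 14.1 and 12.6 CPM in ko. The 3 tissues formed separate bands with no overlap, and genotypes mixed within each band. The difference on which the gene was chosen was 3.53-fold against iWAT (log2 1.82 ± 0.08 SE) and 5.20-fold against eWAT (log2 2.38 ± 0.08 SE). The step between the white tissues was not part of the choice. Trmt2b was higher in iWAT than in eWAT by log2 0.56 ± 0.08 (SE, edgeR adjusted p = 0.000211).

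Between the white tissues, 2 of 10 members, Trmt2b and Mto1, were higher in iWAT, against 5.7% of all genes, and 0 were lower, against 4.5% (edgeR, with 3 of 10 members and 4782 of 18728 genes at an unadjusted p under 0.05 in either direction). By DESeq2 and without the 4 libraries the count was also 2. With wild type or knockout libraries alone it was 0, where 247 and 123 genes were called against 1911 over all libraries. The log2 difference of Trmt2b was 0.55 and 0.57 in these fits, with an edgeR adjusted p of 0.0949 and 0.0954. Trmt2b was the member whose iWAT libraries all lay above all eWAT libraries, as those of 2.3% of genes did. Over both white tissues, 5 of 10 members (Trmt2b, Mto1, Gtpbp3, Trmu and Pus1) had every iBAT library above every white library, against 14.7% of genes. Trmt2b belongs to that count by choice.

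**Figure D2:**
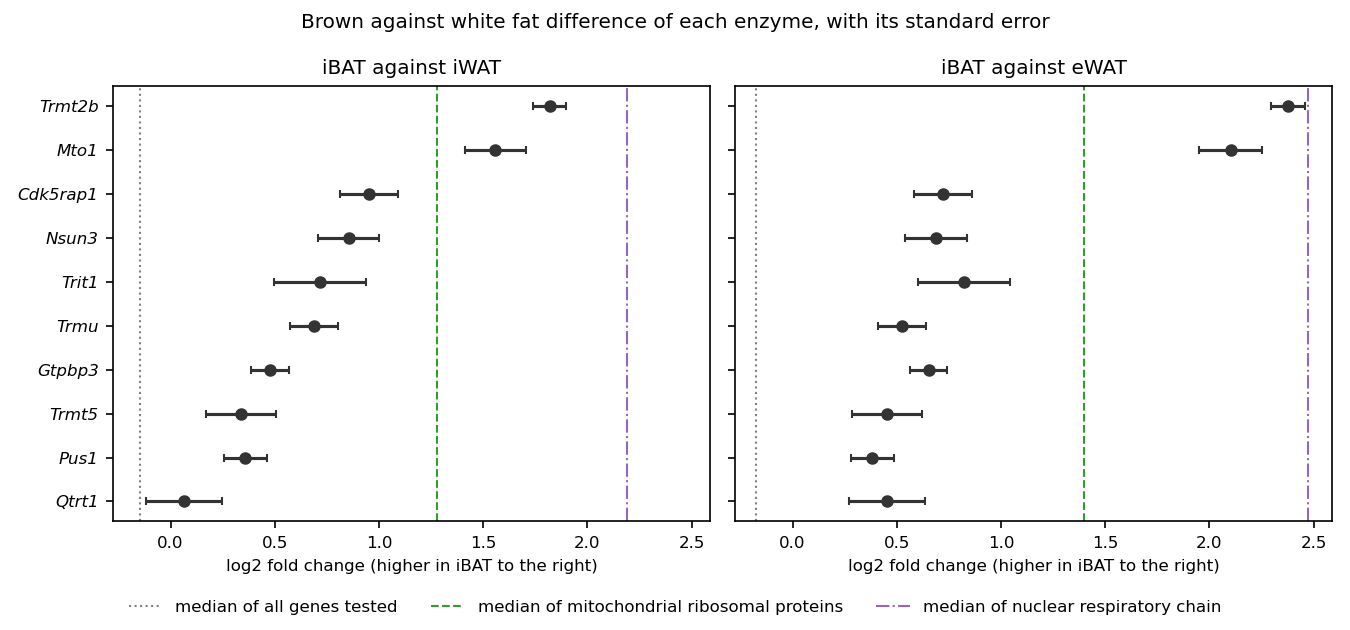
log2 fold change (x axis) of the 10 enzymes (y axis) in iBAT against iWAT (left) and eWAT (right), as points with their standard error, from the edgeR model over 18 libraries. Dotted, dashed and dash-dotted lines mark the median of all genes tested, of mitochondrial ribosomal proteins (1.28 and 1.40) and of nuclear respiratory chain genes (2.19 and 2.47), and Trmt2b and Mto1 lie to the right of the second of these while the remaining 8 lie to its left.

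Levels of different genes were compared only per kilobase of merged exon. On that scale Trit1 was the highest member in iBAT, at 24.7 CPM per kb, ahead of Trmt2b at 15.0 and Mto1 at 14.5 CPM per kb, whose library values overlapped. Nsun3 was the lowest, at 3.42 CPM per kb in iBAT. In iWAT the order changed, with Trit1 at 15.1 and Pus1 at 8.64 CPM per kb ahead of Mto1 at 4.91 and Trmt2b at 4.26 CPM per kb. In eWAT, Trit1 stood at 13.97 and Pus1 at 8.50 CPM per kb, while Trmt2b stood at 2.89 CPM per kb. Which transcript of a gene was used was not measured here, so these levels depend on the annotated exon length.

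The enzymes were set beside other genes of the same tRNA pathway and of mitochondrial translation. Of 11 other genes for mitochondrial tRNA modification, 8 were higher in iBAT than in iWAT and 8 than in eWAT, 0 were lower, and the median log2 difference was 0.69 in both comparisons. The called genes with the smallest p for iBAT against the mean of both white tissues were Osgepl1, which forms a threonine-derived modification beside the anticodon (log2 1.19 and 1.27), Nfs1, the cysteine desulphurase that supplies sulphur (1.03 and 1.23), and Trmt10c and Hsd17b10, both subunits of a methyltransferase complex (0.85 and 1.18, 0.98 and 1.11), against iWAT and eWAT. The median of the 10 members was 0.70 and 0.67, including Trmt2b, which was chosen on this difference. All 3 genes for processing mitochondrial tRNA ends were higher in iBAT than in both white tissues, with medians of 0.70 and 0.65. Prorp and Elac2 cut the 5′ and 3′ ends of the precursor, and Trnt1 adds the CCA end.

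Enzymes for cytosolic tRNAs differed in both directions, with more called higher than lower in iBAT. Of 57 tested, 19 were higher and 5 lower in iBAT than in iWAT, with a median of 0.15. Against eWAT, 22 were higher and 10 lower, with a median of 0.17. Of all genes tested, 24.0% were higher and 30.3% lower than in iWAT (median -0.14). Against eWAT these shares were 24.4% and 30.2% (median -0.17). The genes named next have the smallest p in each direction, so their number does not reflect these counts. Elp5, a subunit of the Elongator complex that modifies wobble uridines, rose by 1.06 and 1.03 on the log2 scale, and Dph3, Dus1l and Urm1 rose by 0.95, 0.65 and 0.70 against iWAT. Elp3, the catalytic subunit of Elongator, fell by 0.47 and 0.68, and Trmt2a, the cytosolic counterpart of Trmt2b, fell by 0.55 and 0.43. Mettl1, which makes 7-methylguanosine, fell by 0.76 and 0.84, and Trmt112, an activating subunit of several methyltransferases, fell by 0.59 and 0.53.

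The lists next in the path of mitochondrial translation had higher medians than the modifying enzymes. Of 20 mitochondrial aminoacyl-tRNA synthesis genes, which charge the tRNAs, 18 were higher in iBAT in each comparison and 0 lower, with medians of 1.11 and 1.19, and Aars2 reached 1.88 and 2.16. Of 78 mitochondrial ribosomal protein genes, 76 were higher in each, with medians of 1.28 and 1.40. Of 103 nuclear respiratory chain genes, 99 were higher and 1 lower in each, with medians of 2.19 and 2.47. The 13 messenger RNAs of the mitochondrial genome were all higher, with medians of 2.48 and 3.28. The summed mitochondrial messenger RNA ran from 291120 to 390824 CPM in iBAT and from 26959 to 88751 CPM in white libraries. Most of the enzymes were likewise higher in iBAT, but Qtrt1 and Trmt5 were not called against iWAT. Between iWAT and eWAT the median log2 difference was 0.70 for these 13 messenger RNAs (0 called) and 0.11 for the 10 enzymes (2 called). The part of mitochondrial messenger RNA in the levels of the enzymes was not tested.

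**Figure D3:**
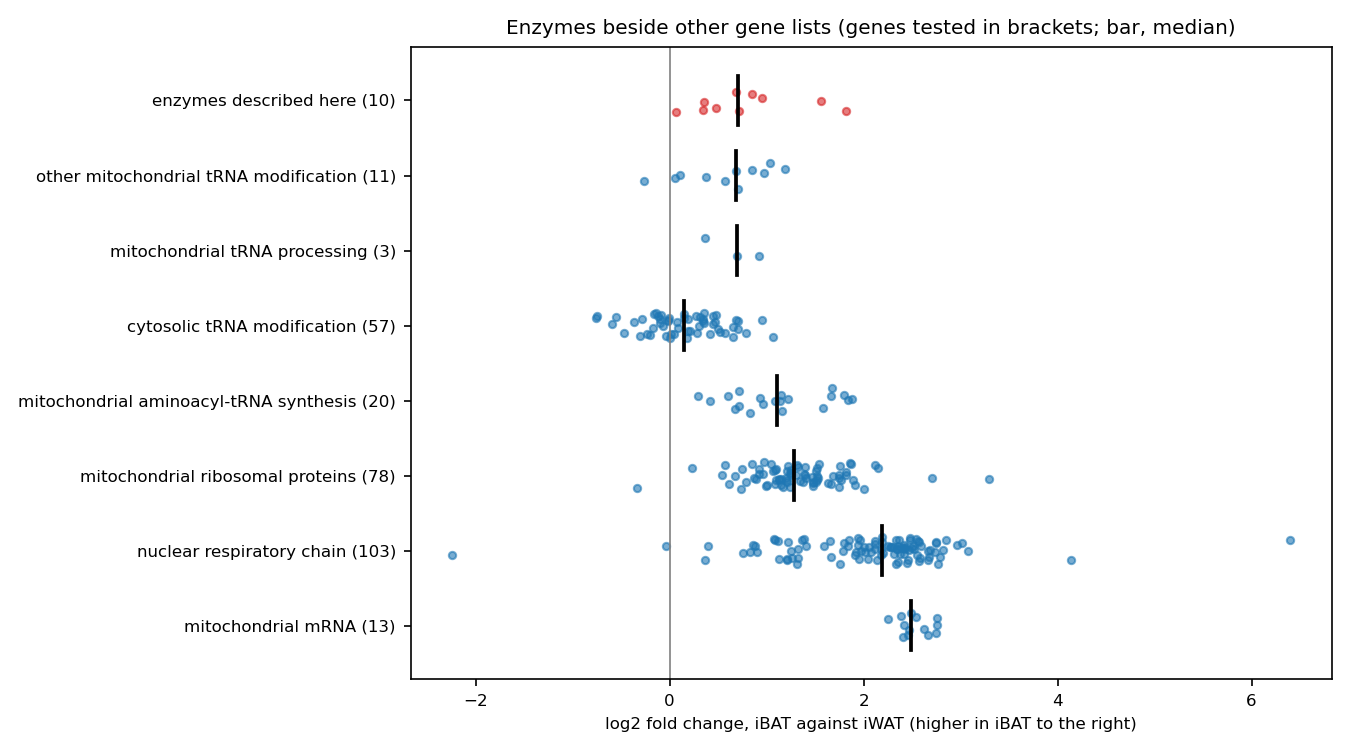
log2 fold change in iBAT against iWAT (x axis) of each tested gene in 8 lists (rows, number of genes in brackets), with a black bar at the median and vertical jitter only for legibility. The medians run from 0.15 for cytosolic tRNA modification and 0.70 for the 10 enzymes (red) to 2.48 for mitochondrial mRNA. The 10 enzymes include Trmt2b, which was chosen for being higher in brown fat.

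Likeness in pattern was described by Pearson correlation over the 18 libraries among 15132 protein-coding genes. For Trmt2b the closest on log2 CPM were Rmnd1 (r = 0.994), a factor of mitochondrial translation, Xrcc6 (0.992), a DNA end-binding protein, Chkb (0.989), a choline kinase, Cpt1b (0.989), which imports fatty acids into mitochondria, and Acss1 (0.989), a mitochondrial acetyl-CoA synthetase. The tissue difference dominates these values, and the 18 libraries come from 6 mice. Among the members, Mto1 was the closest to Trmt2b, at 0.976, followed by Gtpbp3 at 0.932, and Qtrt1 was the least alike at 0.46.

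The genotypes were compared to ask whether loss of Gm15551 altered any of these transcripts. Cdk5rap1 was chosen for being higher in knockout mice. In iBAT it held 17.8, 13.5 and 18.4 CPM in wt 1 to 3 and 34.4, 24.9 and 25.2 CPM in ko 1 to 3. In iWAT it held 10.7, 8.19 and 7.78 CPM in wt and 15.6, 13.2 and 13.2 CPM in ko. In eWAT it held 13.3, 9.36 and 10.3 CPM in wt and 19.0, 14.6 and 13.2 CPM in ko. The genotypes were apart in iBAT and iWAT, and in eWAT ko 3 lay just under wt 1. Non-overlap in either direction was seen for 4.94% (iBAT), 4.92% (iWAT) and 5.25% (eWAT) of all genes tested.

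The ratio of knockout to wild type mean CPM of Cdk5rap1 was 1.70 for iBAT, 1.58 for iWAT and 1.42 for eWAT, and ratios of same-numbered libraries ran from 1.28 to 1.93. The fitted log2 difference was 0.64 ± 0.11 (SE) over tissues, and 0.76 in iBAT, 0.66 in iWAT and 0.50 in eWAT. Without the 4 libraries with markers of other tissues it was 0.65 over tissues and 0.76, 0.48 and 0.60 within them. The value in iWAT then rests on 1 knockout and 2 wild type libraries, and that in eWAT on 2 knockout and 3 wild type libraries. Of all genes tested, 26 (0.139%) were higher in the knockout in all 9 same-numbered pairs, the pattern for which Cdk5rap1 was chosen. The 9 pairs come from 3 mice per genotype, so the tissues do not give independent repeats.

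**Figure D4:**
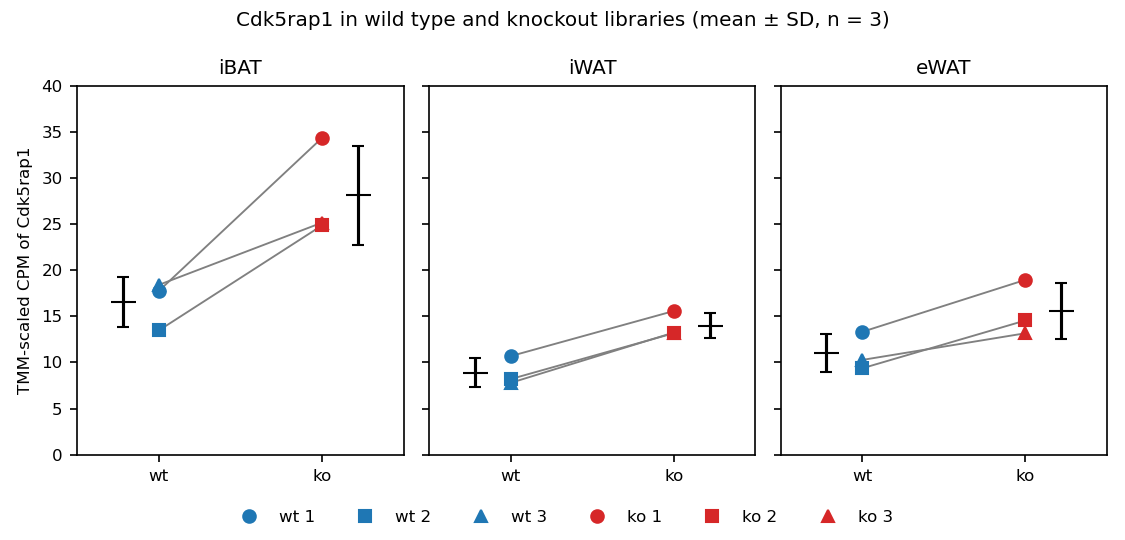
TMM-scaled CPM of Cdk5rap1 (y axis, from 0) in wt (blue) and ko (red) libraries of each tissue, with grey lines joining libraries of the same replicate number and black bars for the mean ± SD of 3 libraries. Each line rises from wt to ko, from 17.8 to 34.4 CPM for library 1 of iBAT. The order of the tissue means is alike in both genotypes, although the libraries of iWAT and eWAT overlap.

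Of the other 9 members, none passed the test between genotypes. Across tissues 0 of 9 passed the edgeR test between genotypes, with 0 at an unadjusted p under 0.05 and 0 by DESeq2, while 0.00534% of all genes were called. The log2 differences ran from -0.11 ± 0.09 (SE) for Trmu to 0.03 ± 0.12 (SE) for Mto1. Within iBAT, iWAT and eWAT the edgeR counts were likewise 0 of 9, with 0 at an unadjusted p under 0.05 and 0 by DESeq2, against 0.0%, 0.0% and 0.00534% of genes. The genotype by tissue interaction was called for 0 of 9 members, again with 0 at an unadjusted p under 0.05 and 0 by DESeq2, and for 0.0% of genes. Trit1, which makes the substrate of Cdk5rap1, averaged 51.8 CPM in wt and 51.4 CPM in ko iBAT, 28.8 and 34.1 CPM in iWAT, then 30.7 and 27.6 CPM in eWAT. Its SE of 0.18 over tissues was the widest among the members. No member of the other tRNA lists was called between genotypes by edgeR, and 0 had an unadjusted p under 0.05.

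The neighbours of Cdk5rap1 on chromosome 2 were examined as well. Of 24 tested protein-coding genes within 1000000 bp of it, 0 were called between genotypes by edgeR and 1 had an unadjusted p under 0.05. Their median log2 difference was 0.01, and 0 were higher in the knockout in all 9 same-numbered pairs. Necab3 had the highest value, 0.72, and is named after its value was seen.

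After removal of the tissue mean, the protein-coding genes most like Cdk5rap1 over the 18 libraries were Sgk1 (r = 0.82), a kinase induced by glucocorticoids, Ddit4 (0.81), an inhibitor of mTOR signalling, Arfgap3 (0.81), a GTPase-activating protein of the Golgi, Klf4 (0.79), a transcription factor, and Errfi1 (0.79), an inhibitor of EGF receptor signalling. These differed between knockout and wild type by 0.57, 0.61, 0.19, 0.55 and 0.90 on the log2 scale, and none was called by edgeR. The correlations contain the genotype difference for which Cdk5rap1 was chosen. Among the members the values ran from -0.47 for Gtpbp3 to 0.20 for Trmt5.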

How the data were processed

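The members and gene lists were chosen with earlier results of these data known. Per the labels and methods, the authors extracted RNA with TRIsure, made paired-end NEBNext Ultra II libraries of polyadenylated RNA, filtered reads with cutadapt and quantified them with salmon on GRCm38 (GENCODE M22, or M22 with RNAcentral). The deposited values are salmon's estimated counts summarised by gene, given as whole numbers and not normalised. Tool versions, the strand setting and the summing of transcripts to genes are not given in the sources used here. Salmon shares reads between similar sequences by a model, so that overlapping genes carry uncertainty.

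Counts were tested with edgeR 4.0.16 (R 4.3.3), by its quasi-likelihood F-test, with TMM scaling and filterByExpr by group, which left 18728 genes. A tissue plus genotype model gave the tissue contrasts and the genotype effect, and a group-mean model gave those within tissues and the interaction. P-values were adjusted by Benjamini-Hochberg over the 18728 genes (threshold 0.05). The model takes the 18 libraries as independent, so p-values and SE rest on the spread between libraries, although each mouse gave 3 of them. CPM are TMM-scaled, and each SE was obtained from the fold change and its F value. Gene positions and exon lengths are of GENCODE M21 (54094 of 54347 identifiers found), promoter windows of RefSeq GRCm38.p6 (10 of 10 members found). Both edgeR models were run on simulated counts with known changes, drawn as independent libraries without a mouse effect. No limit on recovery was set there for the genotype contrast within iBAT. Total counts were 14997901 to 34389586, and members held 84 to 1410 counts per library.

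Libraries of 1 mouse are paired through the mouse labels, and their deviations from group means correlated by -0.17 to 0.33. The mouse as a block was an alternative and left the counts of members called between tissues unchanged. Other alternatives were DESeq2 1.42.0 and its size factors, limma voom (3.58.1), scaling without the mitochondrial genome, other filters on low counts, a number block, a random mouse effect, sums of counts over the tissues of a mouse, libraries of 1 genotype or 1 tissue, and leaving out each library or the 4 with markers of other tissues. The genes named were all members, Gm15551, up to 4 called genes with the smallest p per list and direction for iBAT against the mean of the white tissues, and the 5 genes most alike to Trmt2b and to Cdk5rap1. Motifs were searched on both strands of each window.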

Additional observations from a re-analysis of the deposited data

Results flagged for a closer look

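Each member was examined for a library far from the other 5 of its tissue, by the gap to the nearest library relative to the whole range, with the limit that Dixon's test sets for 6 libraries. Of 30 comparisons 3 were past it, and chance gives about 1 in 20, or 1.5. Trit1 reached 51.7 CPM in iWAT ko 3, while the other 5 iWAT libraries held 20.6 to 30.0 CPM. Trit1 also reached 41.1 CPM in eWAT wt 3, against 22.2 to 28.8 CPM in the other 5. Nsun3 reached 17.4 CPM in eWAT ko 3, against 11.2 to 12.8 CPM in the other 5 eWAT libraries. That library carried 4824 CPM of epididymis markers and 114.7 CPM of testis markers, whose part in the value was not tested.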

How the results depend on the processing

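The counts of members called kept to within 1.5 times of those reported under most alternatives. With knockout libraries alone 4 of 9 members were higher in iBAT than in iWAT, and 4 than in eWAT, and with wild type libraries alone 3 were higher in iBAT than in eWAT. These fits hold 9 libraries in place of 18, and called 5584, 5878 and 6574 of all genes, against 10164 and 10220. With no filter on low counts 6 of 9 members were higher in iBAT than in iWAT and 7 than in eWAT, and with at least 10 counts in every library 7 and 8. Between iWAT and eWAT, 0 members were called with either genotype alone, in fits that called 247 (wt) and 123 (ko) of all genes against 1911, and 1 to 2 when 1 library was left out. Leaving out 1 library gave 7 to 8 members in iBAT against iWAT, 7 to 9 in iBAT against eWAT, and 0 between genotypes.

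With the mouse as a block, 7, 9 and 2 members were called between tissues, as without it. Same-numbered wt and ko libraries share only a number, with correlations from -0.47 to 0.55. With the number block, 0 of the 9 members other than Cdk5rap1 were called between genotypes.

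Differences that turned in sign were near 0 and past no threshold in either fit. Qtrt1 in iBAT against iWAT was -0.041 with at least 10 counts in every library. Between iWAT and eWAT, wild type libraries alone gave -0.090 for Trit1, -0.010 for Trmt5 and 0.016 for Nsun3, voom gave -0.057 for Pus1 and 0.025 for Nsun3, and leaving out the 4 libraries with markers of other tissues gave -0.063 for Pus1. Between genotypes, Mto1 was -0.017 by voom, -0.013 with the mouse as a random effect and -0.049 with counts summed per mouse. Without the 4 libraries Gtpbp3 was 0.0027, Pus1 0.014 and Qtrt1 0.11, and with the random effect Gtpbp3 was 0.0083 and Qtrt1 0.043. Qtrt1 was 0.045 by voom, Trmt5 0.00039 by DESeq2 and Nsun3 0.0020 with DESeq2 size factors. The cause was not tested.

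Leaving out 1 library also turned signs. Qtrt1 in iBAT against iWAT ran from -0.015 to 0.24. Between iWAT and eWAT, Trit1 ran from -0.10 to 0.24 and Pus1 from -0.049 to 0.071. Between genotypes, Mto1 ran from -0.015 to 0.10, Trit1 from -0.11 to 0.13, Trmt5 from -0.074 to 0.054, Qtrt1 from -0.12 to 0.059 and Nsun3 from -0.081 to 0.043. Qtrt1 had the fewest reads, 84 to 331 counts per library.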

Other observations

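The table also lists the 22 tRNA genes of the mitochondrial genome, the substrates of these enzymes. Polyadenylated libraries hold them mainly as parts of longer transcripts, and their totals over the 18 libraries ran from 3 to 26032 counts with a median of 370, so that 16 passed the filter on low counts. Their levels were not compared between groups.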
